A study of Mus musculus with 2 samples.

Results

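The Schlafen genes are a family of interferon-inducible genes. The members described here were Slfn1, Slfn2, Slfn4, Slfn5, Slfn8 and Slfn9, taken by their symbols from the features of both libraries, 6 of 32285 features in all. The remaining 4 features of the Slfn name (Slfn3, Slfn14, Slfn5os and Slfnl1) were not members. The cells came from subcutaneous tumors of the mouse colon carcinoma line MC38 grown in C57BL/6 mice. The control library is labelled as untreated, whereas per the design text of the series these tumors received vehicle, saline with 10% DMSO. The MSA-2 library came from tumors injected intratumorally with MSA-2, a small-molecule agonist of the innate immune adaptor STING. Both groups were given 3 doses at intervals of 3 days, with 10% DMSO in the vehicle. Each library was made from 3 pooled tumors by droplet-based 3′ single-cell RNA-seq, so that each condition was 1 sample. No p-value was possible for MSA-2 against untreated, and every interval given below is an exact 95% interval that covers counting error only, not the spread between animals.

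After filtering, 13334 untreated and 13393 MSA-2 cells were kept, from libraries of 198135335 and 204387165 UMIs, with a median of 8298.5 and 9271 UMIs per cell (unique molecular identifiers, each standing for 1 captured RNA molecule). Cells were placed in myeloid, lymphoid, stromal and tumor classes by marker gates. The neutrophil gate took 36 untreated and 2374 MSA-2 cells, the Ly6c2 monocyte gate 284 and 631, the macrophage gate 3657 and 1101, the T cell gate 1183 and 139, the NK cell gate 175 and 99, the fibroblast gate 190 and 535, the endothelial gate 58 and 67, and the tumor gate 6437 and 6838. The labels name the cells tumor cells only, whereas these gates also found leukocytes and stroma. The level of a gene is stated in CPM, its UMIs in a class scaled to one common total of UMIs. Summed neutrophil markers reached 100040 CPM in the MSA-2 neutrophils against 436 in the MSA-2 tumor class, and T cell markers 3851 in the MSA-2 T cells against 3.95 in the MSA-2 tumor class. The untreated neutrophils, at 36 cells, and the MSA-2 dendritic cells, at 20 cells, were below the minimum of 50 cells, and their values are given only as a description. The gates cut continuous marker scores, and 247 untreated and 221 MSA-2 cells lay within 25% of the macrophage threshold, 2109 and 1952 of the monocyte, 1363 and 1895 of the tumor, and 7 and 128 of the neutrophil threshold. Between the libraries, 53 barcode sequences were shared.

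Schlafen proteins share an N-terminal core that in several members cleaves or binds tRNA. Slfn1 and Slfn2 are short forms, Slfn4 is an intermediate form, and Slfn5, Slfn8 and Slfn9 are long forms that carry an additional helicase-like region. The family is induced by type I interferon, the cytokine made downstream of STING. Slfn2 is known for keeping T cells and monocytes quiescent and for protecting tRNA in activated T cells, and Slfn4 is known as a gene of myeloid cells.

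The 6 genes lie together in 238.9 kb of chromosome 11 (GRCm38 with GENCODE M21, chr11:82951349-83190216). Slfn5, Slfn2, Slfn1 and Slfn4 lie on the forward strand, and Slfn9 and Slfn8 on the reverse strand. The upstream sequences are shown because the genes are a tandem cluster of interferon-inducible genes. The sequences below are 80 bases upstream of the start site, read 5′ to 3′ on the gene's strand from the RefSeq promoter table (GRCm38.p6), which held all 6 members. For the long forms Slfn5, Slfn8 and Slfn9, the capitals mark the core of the interferon-stimulated response element, GAAANNGAAA on either strand, a sequence known from the promoters of interferon-stimulated genes.
Slfn5, chr11:82951902-82951981: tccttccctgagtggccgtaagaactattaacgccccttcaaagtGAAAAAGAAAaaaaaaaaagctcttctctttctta
Slfn8, chr11:83020821-83020900: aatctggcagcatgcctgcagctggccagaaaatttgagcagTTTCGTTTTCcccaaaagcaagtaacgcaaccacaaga
Slfn9, chr11:82991841-82991920: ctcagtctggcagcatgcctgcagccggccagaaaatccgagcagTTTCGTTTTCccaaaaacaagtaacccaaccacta
The core began 155 bases upstream of the RefSeq start of Slfn5, and 48 and 45 bases upstream of the Slfn8 and Slfn9 starts, where it read on the opposite strand. The annotations differ for Slfn5, whose gene starts 753 bases earlier in GENCODE than the RefSeq start used here, so that the Slfn5 stretch lies inside the GENCODE gene, in no annotated exon. For Slfn1 the RefSeq start lies 29 bases before that of GENCODE, and for the other 4 members the starts are the same. Of 32851 windows of 250 upstream bases, 2.98% held these letters on either strand. They were absent from the 250 bases of Slfn1, Slfn2 and Slfn4. The letters TTCNNNGAA, the core of the interferon-gamma activated site, were in 7.02% of the windows and in none of the 6 members.

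For Slfn1, Slfn2 and Slfn4, the capitals mark the longest run of letters that these upstream windows share, 11 bases, found after the sequences were seen.
Slfn1, chr11:83116720-83116799: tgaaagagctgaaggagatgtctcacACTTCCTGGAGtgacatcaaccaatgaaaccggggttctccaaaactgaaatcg
Slfn2, chr11:83065012-83065091: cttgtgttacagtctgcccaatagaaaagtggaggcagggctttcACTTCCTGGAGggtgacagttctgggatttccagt
Slfn4, chr11:83175086-83175165: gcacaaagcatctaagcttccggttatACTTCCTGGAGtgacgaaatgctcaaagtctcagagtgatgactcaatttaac
The run ACTTCCTGGAG began 74, 55 and 73 bases upstream of the Slfn1, Slfn2 and Slfn4 starts, and 20 of the 32851 windows (0.0609%) held it on either strand. The run was absent from the windows of Slfn5, Slfn8 and Slfn9. Each shared run is a description of these letters and not a site of binding. Slfn8 and Slfn9 lie side by side and shared a run of 20 bases with each other. Slfn5os, an antisense transcript that overlaps Slfn5, is a feature of its own and had 17 and 73 UMIs in all. At the 3′ ends, where the reads fall, 7.02% of the 31-base words of the last 500 bases of Slfn8 also occur in Slfn9 transcripts, and 2.98% in the pseudogene Slfn10-ps, while 3.19% of those of Slfn2 occur in Slfn3 and 1.49% in Slfn4, so that a small part of these reads could be shared. None of the words of Slfn1, Slfn4, Slfn5 or Slfn9 occurred in another Slfn transcript.

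Over all kept cells, each of the 6 members was at least 2-fold higher in the MSA-2 library, where 9.42% of the 17404 features with at least 50 UMIs were. Slfn4 differed most, from 858 UMIs (4.68 CPM) in the untreated library to 37011 (193) in the MSA-2 library, 2 libraries whose class make-up also differed. Slfn8 went from 2017 to 10339 UMIs, Slfn1 from 2135 to 8539, Slfn2 from 11643 to 40014, Slfn5 from 3455 to 9910 and Slfn9 from 2984 to 8220. Their log2 ratios of CPM ran from 1.40 for Slfn9 to 2.29 for Slfn8, against 5.37 for Slfn4. When the MSA-2 levels of each class were weighted by the untreated make-up, the Slfn4 log2 ratio over the gated cells went from 5.23 to 4.50 and that of Slfn1 from 1.85 to 1.66. The other 4 members moved by less than that, and Slfn8 stayed at 2.28 and 2.29.

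The classes that held each member's molecules differed between the libraries. In the untreated library, macrophages held 60.3% of the Slfn1, 59.4% of the Slfn4, 58.1% of the Slfn5 and 51.0% of the Slfn2 UMIs. In the MSA-2 library, neutrophils held 49.1% of the Slfn4, 46.2% of the Slfn1 and 30.8% of the Slfn5 UMIs, while macrophages held 6.49%, 11.3% and 12.9%. The tumor class held 53.1% of the Slfn2 UMIs of the MSA-2 library, up from 30.8%, and 81.2% and 84.7% of the Slfn9 UMIs of the untreated and MSA-2 libraries. The tumor class held 76.6% and 80.5% of the UMIs of all genes, so that the Slfn9 share was near that of the class, and the Slfn2 shares and those of Slfn8 (52.2% and 62.7%) were below it. The cells were sorted per the study's methods, which name no gate, and a sort can set such shares. Fibroblasts held 17.9% of the Slfn5 UMIs of the MSA-2 library, where they held 4.08% of the UMIs of all genes.

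**Figure D1:**
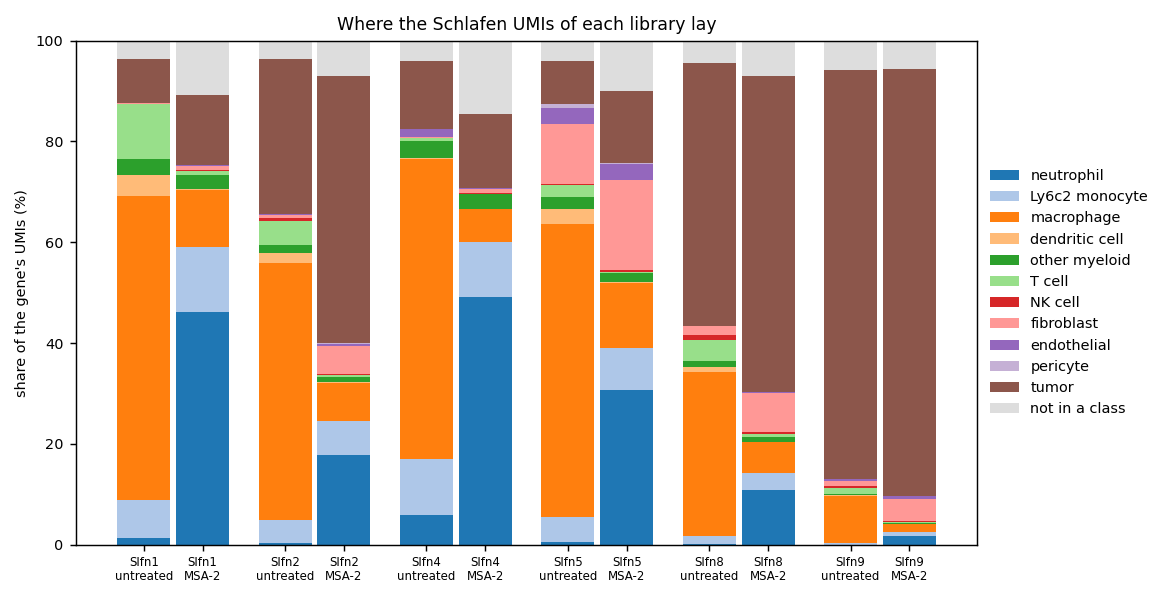
Share of each member's UMIs (vertical axis, %) by gated class, in the untreated and the MSA-2 library, 1 library per condition. Neutrophils hold 49.1% of the Slfn4 UMIs after MSA-2 and 5.94% in the untreated library, and the tumor class holds over 80% of Slfn9 in both.

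Within the myeloid class all 6 members were at least 2-fold higher in the MSA-2 library, where 9.36% of 12422 features tested were, and the median log2 ratio was 2.27 over the members and -0.39 over all features tested. The class itself shifted from macrophages to neutrophils, so that its sums mix levels and make-up. Weighting the MSA-2 sub-class levels by the untreated myeloid make-up took the Slfn4 log2 ratio from 6.12 to 4.27 and that of Slfn1 from 2.83 to 1.59. It also took Slfn2 from 1.84 to 1.06, and Slfn9 from 1.14 to 1.05. The values within each sub-class are therefore given below.

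**Figure D2:**
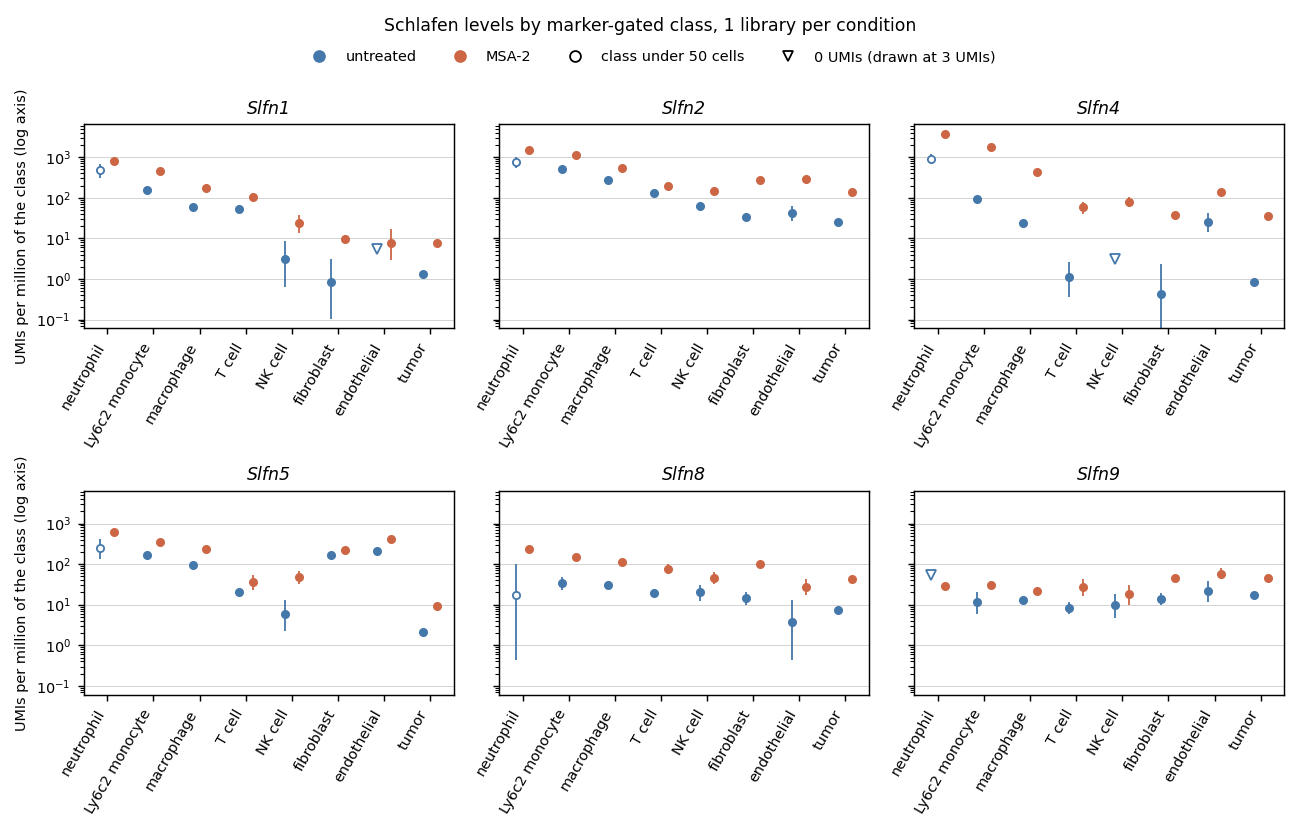
Level of each member (vertical axis, CPM, UMIs of the gene scaled to an equal total per class, log axis) in 8 gated classes of the untreated and MSA-2 libraries, with exact 95% Poisson intervals that cover counting error only. In the MSA-2 library Slfn4 runs from 3782 in neutrophils to 34.7 in the tumor class, whereas Slfn9 stays between 18.2 and 58.7.

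Slfn4, the myeloid member, had 3782 CPM in the MSA-2 neutrophils and 1747 in the MSA-2 Ly6c2 monocytes, followed by 433 in the macrophages. Each of these steps was larger than counting error, with log2 ratios of 1.11 (95% interval 1.07 to 1.16) and 2.01 (1.94 to 2.09). In the untreated library the order was the same at lower levels, 899 in the 36 neutrophils, 91.6 in the monocytes and 24.0 in the macrophages. Thus Slfn4 was 19.1-fold higher in the MSA-2 monocytes (log2 4.25, 3.96 to 4.56) and 18.0-fold higher in the MSA-2 macrophages (log2 4.17, 4.03 to 4.31). The monocytes compared sat in different clusters, since 93.3% of the untreated ones lay in clusters called macrophage by their markers, and 81.0% of the MSA-2 ones in a monocyte cluster that the untreated library lacked. For the neutrophils the ratio rested on 51 UMIs of the untreated library and was log2 2.07 (1.68 to 2.50).

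Slfn4 was seen in nearly every MSA-2 neutrophil. The median MSA-2 neutrophil held 7 Slfn4 UMIs among a median of 1839.5 UMIs of all genes, 90% held 14 or fewer, and 53 of 2374 (2.23%) held none. Thinned to 1500 UMIs per cell, so that cells of unlike depth could be compared, 96.7% of the MSA-2 neutrophils kept a Slfn4 UMI (97.8% unthinned). The same share was 81.4% in the MSA-2 monocytes against 14.7% in the untreated monocytes, and 39.2% against 3.77% in the macrophages. In the tumor class, where the gene was near 0 in the untreated library, it was 5.43% against 0.126% (44.2% and 1.41% unthinned). Thinning left out 599 of the MSA-2 neutrophils and 26 of the 36 untreated neutrophils, for which the depth was not enough.

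Slfn4 was also higher in MSA-2 classes that hold little of it, at 34.7 CPM against 0.819 in the tumor class, 57.8 against 1.13 (5 UMIs) in T cells, 79.8 against 0 in NK cells (at least 26.4-fold, against 3 UMIs over the class) and 36.9 against 0.421 in fibroblasts. The fibroblast ratio rested on 1 untreated UMI, with a counting interval of 15.6-fold to 3474-fold. With 10 CPM added to both levels the log2 ratio of Slfn4 was 2.05 in the tumor class, 2.61 in T cells and 2.17 in fibroblasts, against 5.41, 5.68 and 6.45 as counted. Neutrophil RNA moved with these values. S100a9, a calcium-binding protein gene that defines neutrophils, went from 0.0323 to 4.37 UMIs per cell in the tumor class, and from 0.00526 to 2.88 in fibroblasts. There were 17.97 Slfn4 UMIs per 100 S100a9 UMIs in the MSA-2 tumor class and 18.73 in the fibroblasts, against 7.98 in the MSA-2 neutrophils, 186 in the macrophages and 600 in the monocytes. If each S100a9 UMI of the tumor class came with Slfn4 at the neutrophil ratio, 44.4% of its Slfn4 UMIs would be accounted for, and the log2 ratio would be 4.85 in place of 5.41. The same subtraction changed the macrophage ratio only from 4.17 to 4.11. Free RNA from monocytes and macrophages is not in this subtraction, and its part in the tumor, lymphoid and stromal Slfn4 values was not tested. An MSA-2 cluster of 123 cells, of which 68 were tumor-gated, had the neutrophil genes Fpr1, Hdc and G0s2 among its leading genes and 227 Slfn4 CPM in the tumor-gated cells, and without them the tumor log2 ratio was 5.29.

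In endothelial cells, Slfn4 stood at 25.8 CPM in the untreated library, level with macrophages within counting error (log2 ratio of 0.10, -0.78 to 0.86). These were 14 UMIs, held by 5.17% of the 58 untreated endothelial cells, so that the level rested on few cells. The interval does not cover that unevenness between cells. The 58 cells had no S100a9 UMI. In the MSA-2 endothelial cells Slfn4 was 140 CPM, log2 2.44 (1.63 to 3.36) above untreated, with 93.9 Slfn4 UMIs per 100 S100a9 UMIs.

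Slfn1, a short form, had the same first 3 classes in the MSA-2 library, from 822 CPM in neutrophils to 468 in monocytes, 174 in macrophages, 103 in T cells and 23.8 in NK cells, each step larger than counting error. Fibroblasts, endothelial cells and the tumor class lay between 7.69 and 9.70 and were not told apart. In the untreated library Slfn1 was 157 in monocytes and 60.7 in macrophages, followed by dendritic cells (53.3) and T cells (52.6). Macrophages and dendritic cells did not differ beyond counting error, nor did dendritic cells and T cells, while macrophages were not compared with T cells. The step from T cells to NK cells was 17.4-fold there, at 52.6 against 3.03, which rested on 3 NK cell UMIs (log2 4.12, 2.55 to 6.41). Against untreated, Slfn1 was higher by log2 1.57 (1.34 to 1.82) in monocytes and 1.52 (1.40 to 1.64) in macrophages. In the tumor class it went from 1.34 to 7.69 CPM, of which neutrophil RNA at the S100a9 ratio would account for 43.6%. At equal depth, 1.14% of the MSA-2 and 0.174% of the untreated tumor cells kept a Slfn1 UMI, compared with 22.9% and 8.61% of the macrophages.

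Slfn2, the short form that restrains proliferation of T cells and monocytes, had its highest level in myeloid cells in both libraries. In the untreated library it was 505 CPM in monocytes, 280 in macrophages, 154 in dendritic cells, 128 in T cells, 61.5 in NK cells, 42.3 in endothelial cells, 34.5 in fibroblasts and 25.5 in the tumor class. The MSA-2 library had 1487 in neutrophils, 1138 in monocytes, 546 in macrophages, 288 in endothelial cells, 278 in fibroblasts and 138 in the tumor class. The ratio of Slfn2 differed between classes. Its log2 ratio was 3.01 (2.69 to 3.34) in fibroblasts, 2.77 (2.14 to 3.45) in endothelial cells and 2.43 (2.38 to 2.48) in the tumor class, against 1.17 (1.04 to 1.31) in monocytes, 0.97 (0.90 to 1.03) in macrophages, 1.27 (0.80 to 1.75) in NK cells and 0.59 (0.30 to 0.87) in T cells. The other myeloid cells, which passed no single finer gate, lay between at 2.04 (1.78 to 2.31), and their interval overlapped that of the endothelial cells. Their make-up differed between the libraries, with neutrophil markers at 532 CPM untreated and 5900 with MSA-2, and macrophage markers at 2641 and 9668. The part of this make-up in the ratio was not tested. Neutrophil RNA at the S100a9 ratio would account for 4.41% of the tumor Slfn2 UMIs and 2.22% of those of the fibroblasts. The share of tumor cells with a Slfn2 UMI at equal depth was 4.44% untreated and 18.4% with MSA-2.

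Among 9 MSA-2 clusters with at least 50 tumor-gated cells, built without the Schlafen and interferon-stimulated genes, Slfn2 lay between 79.9 and 184 CPM in all but 1. The exception was a cluster with 226 tumor-gated cells at 560 CPM (95% interval 536 to 585), whose leading genes included Il11, Krt16 and the chemokine genes Ccl5, Cxcl9 and Ccl2. Slfn1 in that cluster was 17.5 and Slfn4 30.3, where 7 other clusters ran from 5.08 to 9.64 and from 25.5 to 42.0, and the cluster with neutrophil genes described above had 40.3 and 227. In the untreated tumor clusters Slfn2 ranged from 17.0 to 41.5.

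Slfn5, a long form, was as high in stroma as in monocytes in the untreated library. It was 206 CPM in endothelial cells, 172 in fibroblasts and 172 in monocytes, where neighbours in this order did not differ beyond counting error. It was then 94.6 in macrophages, 63.9 in dendritic cells, 20.1 in T cells, 6.05 in NK cells and 2.14 in the tumor class. Slfn5 was thus 80.6-fold higher in fibroblasts than in the tumor class of the untreated library, and 24.9-fold higher in the MSA-2 library. Among classes of at least 50 cells, its ratio between conditions was lowest in fibroblasts. Slfn5 in fibroblasts was 172 untreated and 227 with MSA-2, log2 0.40 (0.24 to 0.56), which is below 2-fold, whereas it was log2 1.29 (1.19 to 1.39) higher in macrophages, 1.02 (0.78 to 1.26) in monocytes and 0.99 (0.68 to 1.32) in endothelial cells. In the tumor class Slfn5 went from 2.14 to 9.11 (log2 2.09, 1.91 to 2.28), and neutrophil RNA at the S100a9 ratio would account for 28.4% of the latter. MSA-2 neutrophils had the highest level, 635, and the 2 MSA-2 neutrophil clusters differed in it, with 849 in the cluster led by Retnlg, S100a9 and G0s2 and 445 in the cluster led by Cxcl3, Cstdc4 and Ccl3.

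Slfn8, a long form, was low in every class of the untreated library, from 3.68 CPM in endothelial cells to 33.7 in monocytes, and neighbouring classes did not differ beyond counting error except for dendritic cells over the tumor class (log2 0.80, 0.10 to 1.42). Classes farther apart in the order did differ, with macrophages over the tumor class at log2 2.04 (1.90 to 2.18) and T cells over it at 1.36 (1.02 to 1.68). In the MSA-2 library Slfn8 was 234 in neutrophils, 151 in monocytes, 113 in macrophages, 102 in fibroblasts, 77.6 in T cells, 46.2 in NK cells, 42.0 in the tumor class and 27.4 in endothelial cells. It was higher in every one of these classes. Its log2 ratios were 2.16 (1.66 to 2.70) in monocytes, 1.88 (1.72 to 2.04) in macrophages, 2.02 (1.49 to 2.53) in T cells, 1.20 (0.35 to 2.07) in NK cells, 2.84 (2.34 to 3.38) in fibroblasts and 2.49 (2.39 to 2.58) in the tumor class. The S100a9 ratio would account for 2.27% of the MSA-2 tumor UMIs of Slfn8.

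Slfn9, the long form next to Slfn8, did not have its highest level in leukocytes. In the untreated library it ran from 22.1 CPM in endothelial cells and 17.3 in the tumor class to 5.58 in dendritic cells, with no neighbouring classes apart beyond counting error, and the other myeloid cells had 3.12 (3 UMIs). Farther apart in that order, the tumor class over macrophages was at log2 0.42 (0.24 to 0.61) and T cells over the tumor class at -1.05 (-1.56 to -0.58). In the MSA-2 library Slfn9 was 58.7 in endothelial cells, 45.9 in fibroblasts and 45.1 in the tumor class, and the tumor class stood above the monocytes at 30.7 (log2 0.56, 0.22 to 0.91). Its log2 ratio was 1.39 (1.32 to 1.45) in the tumor class and 1.73 (1.21 to 2.29) in fibroblasts, against 0.77 (0.45 to 1.09) in macrophages, 1.41 (0.51 to 2.42) in monocytes and 1.71 (0.81 to 2.56) in T cells. Slfn9 was counted in 5.35% of the MSA-2 neutrophils (4.28% at equal depth), fewer than any other member.

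**Figure D3:**
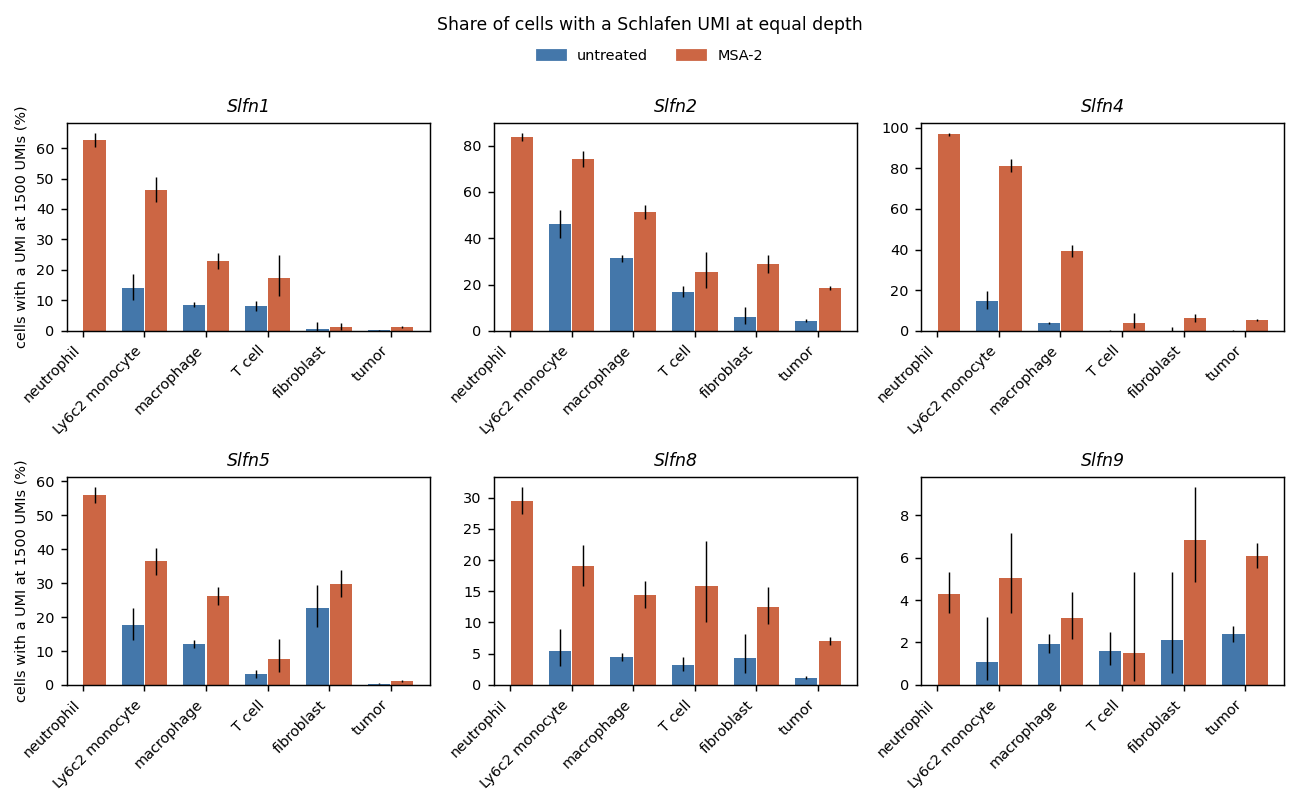
Share of cells with at least 1 UMI of each member (vertical axis, %) after each cell was thinned to 1500 UMIs, for 6 classes in both libraries, with exact 95% Clopper-Pearson intervals for counting error. Untreated neutrophils are not drawn because 10 cells had this depth. Slfn4 reaches 96.7% of MSA-2 neutrophils and 5.43% of MSA-2 tumor cells.

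Neutrophils also held several members at a time. At 1500 UMIs per cell, 80.0% of 1775 MSA-2 neutrophils had UMIs of at least 3 members, compared with 21.2% of 1050 MSA-2 macrophages, 2.20% of 3553 untreated macrophages and 0.709% of 6771 MSA-2 tumor cells.

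**Figure D4:**
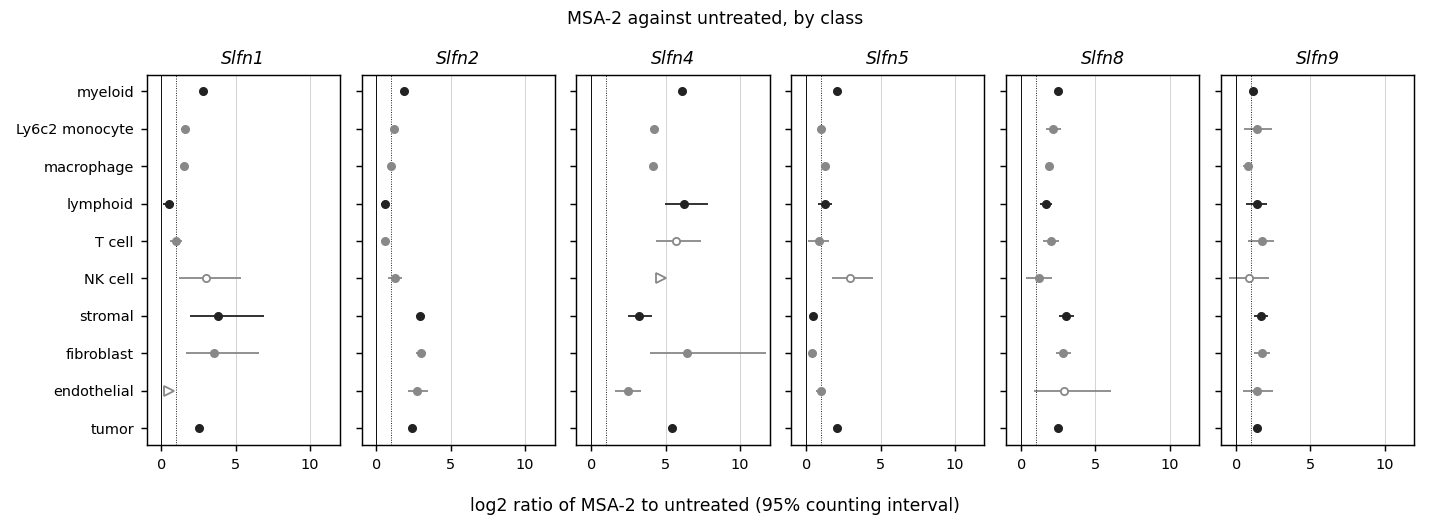
Log2 ratio of MSA-2 to untreated (horizontal axis) for each member by class, with exact 95% counting intervals, 1 library per condition. The dotted line is 2-fold, open circles rest on under 50 UMIs, and arrowheads are lower bounds where the untreated class had 0 UMIs. Slfn4 is farthest to the right in most classes, and Slfn5 in fibroblasts lies left of the dotted line at 0.40.

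By class, the members at least 2-fold higher in the MSA-2 library were 6 of 6 in monocytes, where 11.9% of the features tested were, and 4 of 6 in macrophages (6.21% of features). Slfn2 at log2 0.97 and Slfn9 at 0.77 were the macrophage members short of 2-fold. In the tumor class all 6 members passed, against 9.52% of 16016 features, with a median of 2.46 over the members and 0.06 over the features. In the stromal class 5 of 6 passed (5.33% of features), as in fibroblasts (6.23%), and the exception was Slfn5. The 50 UMIs were counted over both libraries. Stromal Slfn1 (2 and 82 UMIs), Slfn4 (15 and 398), Slfn8 (36 and 825) and Slfn9 (45 and 408) reached them only through the MSA-2 library. The same held in other classes, as for lymphoid Slfn4 (5 and 95) and monocyte Slfn9 (12 and 72). Neutrophil RNA at the S100a9 ratio would account for 35.3% and 33.5% of the MSA-2 stromal UMIs of Slfn1 and Slfn4 (35.2% and 42.6% in fibroblasts). Of 4 members with at least 50 UMIs in endothelial cells 3 passed (5.15%), with Slfn5 at 0.99. The 3 that passed, Slfn2 (23 and 221 UMIs), Slfn4 (14 and 107) and Slfn9 (12 and 45), did not reach 50 UMIs in the untreated library. Slfn5, with 112 untreated UMIs, did. In the lymphoid class 4 of 6 passed (3.72%), all but Slfn1 at 0.51 and Slfn2 at 0.55. NK cells, the class with less Slfn1, held 18.3% of the untreated lymphoid UMIs and 52.1% of those of the MSA-2 library. With the MSA-2 T and NK cell levels weighted by the untreated make-up, Slfn1 was at 1.03, past 2-fold, and Slfn2 at 0.67. Among the 5 members tested in T cells 2 passed (4.31%), Slfn8 and Slfn9. NK cells are given by their values only, since 3 members had 50 UMIs there. Some of these calls depended on low levels. With 10 CPM added to both levels, 4 of 6 members passed in the tumor class, without Slfn1 at 0.64 and Slfn5 at 0.65, and so did 1.06% of all features. In monocytes 4 passed (9.10% of features), without Slfn5 at 0.98 and Slfn9 at 0.91, and in the lymphoid class 2 (1.87%). The counts were 5 in the myeloid class (3.95%) and 4 in both the stromal class (2.67%) and fibroblasts (3.13%). In monocytes Slfn5, Slfn9 or Slfn2 also fell short of 2-fold with doublets kept or with other gates, down to 0.94, 0.88 and 0.97. The log2 ratio of every member with UMIs in both libraries was above 0 in all of these classes.

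The lymphoid values depended on which T cells were compared. T cells of the untreated library formed 3 clusters, and in the cluster with 461 T cell-gated cells led by Satb1 and Skap1 Slfn1 was 118 and Slfn2 239 CPM, while in the cluster with 534 such cells led by Cd3g, Trbc2 and Ifng, the effector cytokine interferon gamma, they were 17.9 and 65.4. The cluster with 161 such cells led by Tnfrsf4, Ctla4 and Ikzf2 lay between, at 56.1 and 152. The MSA-2 T cells formed 1 cluster, led by Ifng, with Slfn1 at 104 and Slfn2 at 193. Between the Ifng-led clusters, which were set side by side after their values were seen, the log2 ratios were 2.54 (1.96 to 3.12) for Slfn1 and 1.56 (1.21 to 1.91) for Slfn2, in place of 0.98 and 0.59 over all T cells. The MSA-2 side was nearly the same in both, 138 of the 139 gated T cells with the same 68 Slfn1 and 126 Slfn2 UMIs. The untreated side was the cluster with the lowest Slfn1 and Slfn2, so the larger ratios come from that choice. Slfn8 was higher by 2.59 (1.92 to 3.29) between these clusters and by 2.02 over all T cells.

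T cells were also divided by their Cd8 genes. Among cells with Cd8a or Cd8b1 and no Cd4 or Foxp3 UMI, 721 untreated and 85 MSA-2, Slfn2 went from 106 to 180 (log2 0.76, 0.40 to 1.11) and Slfn8 from 16.7 to 84.7 (log2 2.35, 1.71 to 2.97).

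The relay that carries the type I interferon signal to such genes was listed beside the members. Of its 10 genes, 3 were at least 2-fold higher in the myeloid class (Usp18 at 3.03, Stat2 at 1.55 and Irf7 at 1.42), 3 in the stromal class, 2 in the tumor class (Usp18 at 1.63 and Irf7 at 1.13) and 1 in the lymphoid class (Usp18 at 2.76). Among all features tested, 9.36% were that much higher in the myeloid, 5.33% in the stromal, 9.52% in the tumor and 3.72% in the lymphoid class. Both gene lists were chosen with earlier results of these data known. Usp18 encodes a feedback inhibitor of the receptor, and Irf7 and Stat2 encode transcription factors of the pathway. The receptor chain Ifnar1 was -0.86 in the myeloid and 0.15 in the tumor class, and no relay gene was 2-fold lower. Of 18 interferon-stimulated comparators, 16 were at least 2-fold higher in the myeloid class, 15 in the stromal, 13 in the lymphoid and 10 in the tumor class, beside the same shares of all features. Their median log2 ratios were 1.96, 2.27, 2.02 and 1.44. The corresponding medians of the Schlafen members were 2.27, 2.98, 1.33 and 2.46. The myeloid order was not that of its sub-classes. In monocytes the median was 2.86 for the comparators and 1.49 for the members, and in macrophages 1.59 and 1.40. In fibroblasts it was 2.39 for the comparators and 2.92 for the members.

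**Figure D5:**
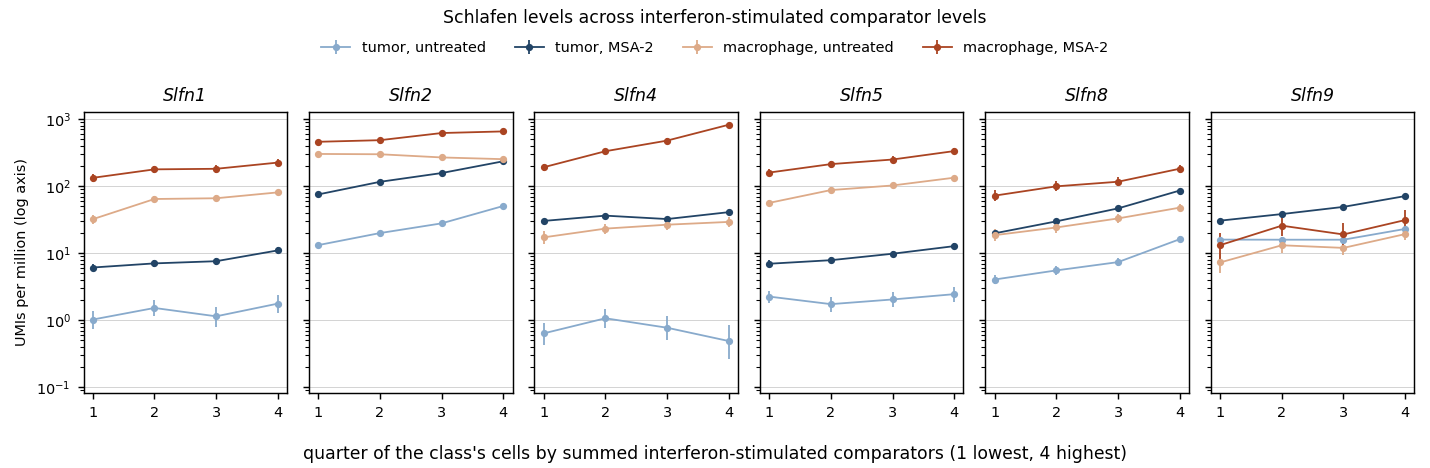
Level of each member (vertical axis, CPM, log axis) in 4 equal bins of the tumor and macrophage cells of each library, ordered by the summed share of 18 interferon-stimulated comparators (horizontal axis, lowest to highest). Error bars are exact 95% Poisson intervals. Slfn8 is higher in the highest than in the lowest bin of all 4 sets of cells, and Slfn2 is not in untreated macrophages (302 and 252).

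Cells of 1 library with more comparator RNA held more of some members. Between the lowest and highest bin of MSA-2 tumor cells by the comparators, Slfn8 went from 19.8 to 85.9 CPM, Slfn2 from 75.2 to 235 and Slfn9 from 30.6 to 71.1, while Slfn4 went from 30.3 to 40.9. The bins differed in depth as well, the median UMI count of a cell being 23363 in the lowest and 14436.5 in the highest (26316 and 14203 in the untreated tumor class), and the part of depth was not tested. Slfn8 and Slfn2 had the same direction in untreated tumor cells, 4.05 to 16.2 and 13.2 to 50.6. In macrophages Slfn8 did likewise, from 18.6 to 47.8 untreated and from 72.2 to 182 with MSA-2, at median depths of 5540 and 5652.5 UMIs untreated and 5663 and 4043 with MSA-2. Slfn2 was an exception, with 302 in the lowest and 252 in the highest bin of untreated macrophages, but 459 and 655 in those of MSA-2 macrophages. Slfn4 differed most between the bins of MSA-2 macrophages, from 191 to 824. In MSA-2 neutrophils the bins differed in Slfn5 (262 to 964), Slfn8 (117 to 293), Slfn9 (16.5 to 36.4), Slfn4 (2619 to 4274) and Slfn1 (664 to 920), but Slfn2 was 1426 and 1492. Cells of a library share its depth and free RNA, so these values describe cells and are not replicates.

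Over 16 class-by-library sums, the features most like each member were named by Pearson correlation of log2 CPM, among 9896 features, as a description without a test. Slfn2 and Slfn8 were both most like Oas3, an oligoadenylate synthetase gene (r = 0.95 and 0.93), and Slfn8 was then followed by Ddx60 and Trim30a. Slfn9 was most like the guanylate-binding protein gene Gbp3 (0.92) and Ifi44 (0.90). Slfn4 was closest to Slpi, a protease inhibitor of neutrophils (0.95), Slfn1 to Lilr4b (0.95) and Ccl3 (0.94), and Slfn5 to Gda (0.93). Among the members themselves, Slfn1 and Slfn2 were most alike (r = 0.88), and Slfn1 and Slfn9 least (-0.02).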

How the data were processed

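The authors deposited 1 matrix of raw UMI counts per gene and cell barcode for each library, made with Cell Ranger on mm10 (7.0.0 per the labels, 7.0.1 per the file headers); whether intronic reads were counted is not given in the sources used here. The labels also name Seurat 4.3.0. No column was left unused. Cells with at least 500 genes and at most 20% mitochondrial counts were kept and doublets removed by a simulation-based caller (scanpy 1.11.5). Classes came from marker gates whose thresholds were set after the data were seen, with clusters built separately. Counts were summed per library and class and given as CPM (counts scaled to an equal total per class). Ratios carry exact conditional binomial intervals, levels exact Poisson and shares Clopper-Pearson intervals (scipy 1.17.1), for counting error only. A feature was called at 2-fold or more among features with at least 50 UMIs over both libraries. A sum of 0 was set against 3 counts. Clusters and classes under 50 cells were not compared, except that ratios of the neutrophils are given as a description. Named genes were the 6 members, the listed pathway genes and the 3 features most like each member (10 CPM added, at least 20 CPM in a class). The ratio code was tested on simulated data. edgeR 4.0.16 gave TMM factors as an alternative. Members and lists were chosen with earlier results of these data known, and the shared promoter run, the T cell division and the cluster comparisons after seeing values. Results that rest on some items are not reported here.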

Additional observations from a re-analysis of the deposited data

Results flagged for a closer look

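The cells in no class, 824 untreated and 1364 MSA-2, were 621 and 1065 that no gate placed and 203 and 299 with mixed markers. They were outside the class comparisons and also held more of the members in the MSA-2 library. Slfn4 had 35 and 5418 UMIs there, a log2 ratio of 6.74 (95% counting interval 6.27 to 7.27). Neutrophil markers moved with it, from 19.7 to 2493 CPM in the cells that no gate placed and from 67.6 to 12246 CPM in the mixed cells, and their part in the ratio was not tested. The log2 ratio was 3.06 for Slfn1, 2.22 for Slfn2, 2.35 for Slfn5 and 2.49 for Slfn8 in the same cells, and 0.90 for Slfn9. Slfn3, a neighbouring Schlafen gene that was not a member, had 87 and 270 UMIs in the myeloid class, a log2 ratio of 2.52, and 345 and 1261 UMIs in the tumor class, a log2 ratio of 1.73. Of the 31-base words in the last 500 bases of Slfn3, 37.0% occur in Slfn4 transcripts, and the part of shared reads in the Slfn3 values was not tested. None of these ratios has a replicate.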

How the results depend on the processing

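No paired analysis was possible because each condition was 1 library. Over 12 alternative settings and 8 classes, 564 ratios of the members were recomputed, of which 0 changed direction, 497 stayed within the counting interval and 67 lay outside it, 24 of them with 10 CPM added before the ratio. That addition took the lymphoid members at 2-fold or more from 4 to 2 (Slfn5 at 0.93 and Slfn9 at 0.80 no longer passed) and the features from 3.72% to 1.87%. The members lost in other classes were Slfn9 in the myeloid (0.73) and Slfn1 in the stromal and fibroblast classes (0.87 and 0.86), beside the tumor and monocyte members given above. With features of at least 10 UMIs in place of 50, the share of features past 2-fold was 6.47% in the lymphoid class, 8.19% in the stromal class, 7.59% in T cells and 9.59% in fibroblasts. TMM factors moved all log2 ratios by 0.25 in the myeloid, 0.26 in the stromal, 0.27 in the monocyte and 0.23 in the fibroblast class, and by -0.08 in the tumor class. With them Slfn2 in macrophages was at 1.02, past 2-fold, as it was in 4 other settings (up to 1.04 with classes from clusters), and in T cells Slfn1 passed at 1.02. T cell Slfn5 passed at 1.34 with every cell given equal weight. Monocyte Slfn5 fell short of 2-fold with doublets kept and with a looser gate (0.94). Slfn9 did so there with a stricter gate (0.88), and Slfn2 with the gate without Ly6c2, Fn1 and Plac8 (0.97). The Slfn4 log2 ratio lay between 2.05 and 5.61 in the tumor class, 2.61 and 5.93 in T cells and 2.17 and 6.79 in fibroblasts, the low end being with 10 CPM added. The removal of barcodes found in both libraries, the removal of S100a9-scaled neutrophil counts, the weighting by untreated make-up and the monocyte gate without Ly6c2, Fn1 and Plac8 were alternatives chosen after seeing the data. The untreated neutrophils and Ly6c2 monocytes formed no clusters of their own, so no cluster-based value was made for them. With pooled tumors and 1 library per condition the spread between mice is unknown.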

Other observations

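Barcodes below the cell filter, 347 untreated and 654 MSA-2, were also counted. Slfn4 in them went from 21.9 to 3744 CPM, and Slfn1 from 17.5 to 435, whereas Slfn9 was 21.9 and 43.3. The make-up of these barcodes differed, with 0 untreated and 184 MSA-2 barcodes in the neutrophil gate and 38 and 8 in the macrophage gate, and its part in these values was not tested.

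In untreated T cells, some members differed by interferon-stimulated comparator RNA, with Slfn5 at 7.41 CPM in the lowest bin and 57.8 in the highest, and Slfn1 at 20.6 and 112. The median depth was 3613 UMIs in the lowest and 2642.5 in the highest bin, and the part of depth was not tested. Slfn9 was 9.87 and 11.3 in the same bins, and Slfn4 had 0 and 2 UMIs. In untreated Ly6c2 monocytes Slfn5 was 65.8 and 377, and Slfn4 30.9 and 193.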
